A study of Mus musculus with 12 samples.

Results

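The first 10 h of activation take a resting B cell into growth. This net change was read from 4 of the 12 RNA-Seq libraries of a time course of mouse splenic B cells, namely the 2 libraries of the 10 h stage set against the 2 libraries of naive cells. Both groups came from male mice 6 to 12 weeks of age, labelled C57BL/6 and in the methods of the study given as a C57BL/6 Pep3b background. Naive cells were sorted straight from spleen as TCRβ-, B220+, IgM+ and IgD-high cells, and were given no treatment. The 10 h cells were first enriched by negative selection, labelled with the division dye CellTrace Violet (CTV) and cultured with lipopolysaccharide (LPS) from Salmonella typhosa at 25 µg/ml. They were then sorted as TCRβ- and CD69+ B cells with the highest dye content, which had not yet divided. Enrichment, dye, culture, sort gate and LPS therefore differ together between the groups and cannot be told apart. Libraries of cells sorted 3 h and 33 h after LPS, and of expanded B cells of day 4, are used only to show when a level moved.

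LPS is a component of bacterial outer membranes that Toll-like receptor 4 recognises, and B cells respond to it without T cell help. Before its first division a lymphocyte enlarges during a long G1 phase, in which it builds ribosomes and takes up amino acids, and makes nucleotides and lipids. The transcription factor Myc, which pairs with Max and binds the E-box CACGTG, is the best known driver of such growth. Naive B cells are kept in quiescence and circulate between lymphoid organs under the control of factors such as Klf2 and Foxo1, and they display antigen on MHC class II molecules.

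Total counts were 38319954 and 29898781 in the naive libraries and 47757637 and 37732672 in the 10 h libraries. After TMM scaling, 1 model was fitted over the 6 stages. Genes count as DE here if the glmTreat test of edgeR, which asks for more than a 1.5-fold change, gave an adjusted p under 0.05 (Benjamini-Hochberg). Of 12750 tested genes 5020 were DE (39.4%), with 2480 higher at 10 h (19.5%) and 2540 lower (19.9%), so that a list needs to be read against about 1 gene in 5 moving each way. The median log2 fold change was 1.36 among genes that rose and -1.78 among genes that fell, and 592 genes rose and 1081 fell more than 4-fold. The median over all tested genes was 0.019. Without the fold limit, edgeR's quasi-likelihood F-test called 67.7% of genes, 35.0% higher and 32.7% lower. For the steps used to date a change, glmTreat called 45.3% of genes from naive cells to 3 h with 21.0% higher and 24.3% lower. The share was 30.8% between 3 h and 10 h, made of 17.4% higher and 13.4% lower, and 14.5% between 10 h and 33 h, made of 10.1% higher and 4.45% lower. Levels are given as RPKM (reads scaled for exon length and TMM-scaled library size) for replicate 1 and then replicate 2, and as scaled values they are shares of the RNA and not amounts per cell. In bulk samples fewer cells of a type and less RNA per cell cannot be told apart. An exact permutation of 2 against 2 libraries cannot give a two-sided p under 0.333, so every smaller p rests on the spread shared over genes and stages, and nothing in the labels says whether 1 library holds 1 animal or a pool.

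**Figure D1:**
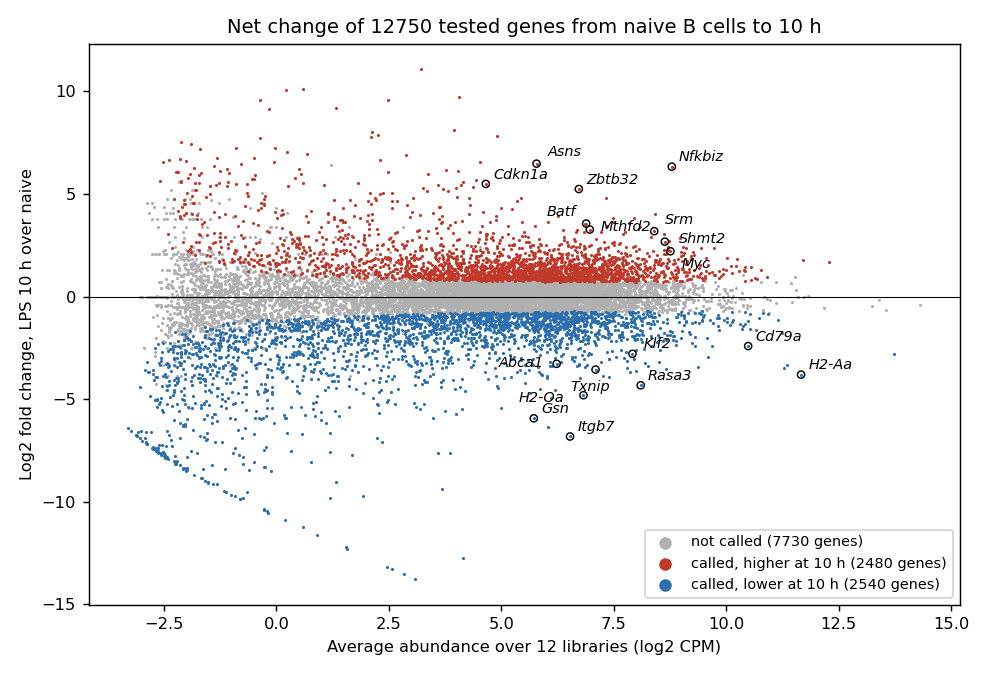
Each point is 1 of 12750 tested genes, with its average abundance over the 12 libraries (log2 CPM) against its fitted log2 fold change from naive cells to 10 h. Red points are the 2480 genes called higher and blue points the 2540 called lower, and the straight lower edge at left is made of genes with hardly a count at 10 h, whose fitted fold change is no bound.

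Markers of B cell identity were abundant in all 4 libraries, although 5 of 6 fell. Pax5, the factor of B cell commitment, stood at 408 and 385 RPKM in naive cells and at 184 and 216 at 10 h. The naive libraries also held transcripts of other spleen cells. Summed over the 11 genes of a myeloid list they reached 426 and 178 RPKM in naive cells and 9.28 and 4.21 at 10 h, and Lyz2, the lysozyme of macrophages and neutrophils, alone went from 141 and 60.2 to 0 and 0.0250. The 6 erythroid genes in the table summed to 380 and 290 against 3.20 and 0.400, a list of 6 NK cell genes to 16.7 and 13.9 against 0.595 and 0.541, and 12 T cell genes to 32.0 and 35.6 against 13.5 and 11.4. Most of the T cell sum was Lck, at 29.4 and 32.3 against 12.5 and 10.8, whereas Cd4, Cd3e, Cd3g, Cd8a, Thy1 and Bcl11b had no count in either 10 h library. Of the dendritic list, Flt3 and Zbtb46 were higher at 10 h, and Siglech and Itgax lower. The share of counts from mitochondrial genes was 10.3% and 11.5% in naive cells and 5.77% and 6.49% at 10 h. These shifts run the same way as the losses of naive genes described below, and their part in them was not tested.

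**Figure D2:**
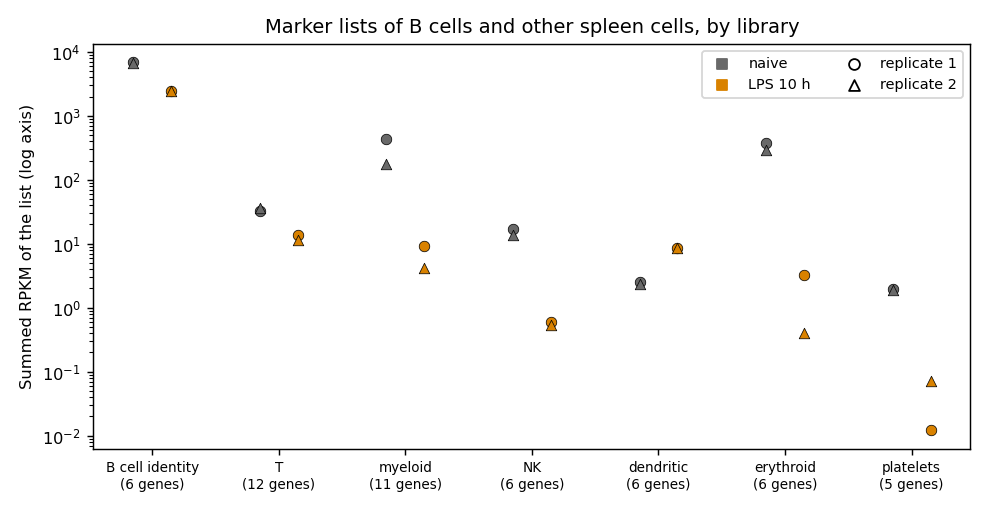
Summed RPKM of each marker list (log axis) in the 2 naive libraries (grey) and the 2 libraries at 10 h (orange), with the number of genes of each list below its name. Myeloid genes sum to 426 and 178 RPKM in naive cells and to 9.28 and 4.21 at 10 h, while the B cell list goes from 6849 and 6701 to 2473 and 2476.

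Myc (Entrez 17869, chromosome 15 of mm10 from 61985341 to 61990361), the marker of this phase, was 4.63-fold higher at 10 h than in naive cells. It measured 31.1 and 28.9 RPKM in naive cells and 138 and 139 at 10 h, so that the groups lay far apart and the replicates close together. Its log2 fold change was 2.21 with an SE of 0.12 (glmTreat adjusted p = 3.7e-08). The 10 h level was on the way down from 835 and 706 RPKM at 3 h, and the mean at 33 h was 76.3. Of 11 tested genes of the network 1 rose, which was Myc itself, and 5 fell. Mxd4, which encodes a Max partner that represses E-box genes, went from 86.3 and 98.9 RPKM to 6.70 and 6.62, a log2 fold change of -3.80 with an SE of 0.25 (glmTreat adjusted p = 2.4e-07). Mxd3 (-1.97), Mnt (-1.58), Mxd1 (-1.51) and Mlxip (-0.84) also fell, while Max was at 53.7 and 54.8 against 52.4 and 48.9 RPKM and was not called. Mycl (-1.13), Mxi1 (-0.82) and Mga (-0.24) were not called either.

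Most genes of the machinery that makes ribosomes rose. Of 47 tested genes of the small subunit processome, the nucleolar complex that cuts and folds the precursor of 18S rRNA, 42 rose and 0 fell (89.4% up, against 19.5% of all tested genes), with a median log2 fold change of 1.46 that is a 2.75-fold rise. Pno1, an assembly factor of the small subunit, went from 24.6 and 27.8 RPKM to 172 and 159. Rrp9, which binds the U3 snoRNA, went from 22.9 and 24.1 to 131 and 125, and Nop58, a core protein of box C/D snoRNPs, from 60.8 and 58.2 to 313 and 315. In these 3 genes each 10 h library was at least 5 times each naive library. Among 47 genes of large subunit assembly 43 rose and 1 fell, with a median of 1.62. Rrp1b rose most, from 4.54 and 5.18 to 34.2 and 33.0 RPKM, followed by Tma16 (2.62) and Nop16 (2.56), whereas the change of Nop53 was -1.16, from 766 and 756 to 330 and 351 RPKM. The abundant nucleolar proteins nucleolin and nucleophosmin moved with them. Ncl stood at 159 and 164 RPKM in naive cells and 533 and 584 at 10 h, and Npm1 at 159 and 171 against 418 and 419.

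RNA polymerase I, which transcribes rRNA, was less uniformly higher. Of 16 tested subunits and factors 6 rose and 0 fell, with a median of 0.57. Polr1e went from 10.3 and 11.3 RPKM to 40.9 and 38.4, a log2 fold change of 1.88, Polr1g (listed as Cd3eap) rose by 1.87, and Polr1b, the second largest subunit, went from 16.6 and 15.9 to 58.3 and 55.8. Rrn3, the initiation factor that couples the polymerase to growth signals, rose by 1.41, from 11.8 and 10.8 to 30.7 and 29.3 RPKM. Ubtf, with a log2 fold change of 0.57, Twistnb (0.58) and Polr1c (0.68) did not pass the test.

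Genes of the ribosomal proteins did not follow their assembly factors. Of 75 tested genes for cytosolic ribosomal proteins 3 rose and 5 fell, with a median log2 fold change of -0.091. The summed level of all 79 listed genes, of which 4 X-linked ones were not tested, was 49780 and 49600 RPKM in naive cells. At 10 h it was 42390 and 41790. Rpl27 rose by 1.37, from 23.5 and 23.9 to 64.1 and 58.6 RPKM, and Rps27 changed by -1.03, from 74.7 and 76.7 to 38.2 and 36.0. Ribosomal protein genes have many pseudogene copies, between which reads could be split. These small counts depended on the setting, with 1 rise and 8 falls under DESeq2's size factors, 1 rise and 3 falls without naive replicate 1, 3 falls without naive replicate 2, 2 falls without LPS 10 h replicate 2, 2 falls under library size alone, and 8 falls with only the 4 libraries or with at least 10 counts in every library. The F-test with no fold limit called 11 rises and 23 falls among the 75 genes. Mitochondrial ribosomes were different, since 53 of 78 tested genes rose and 0 fell, with a median of 0.98. Mrps28, a small subunit protein, went from 16.6 and 18.5 RPKM to 76.6 and 68.2, and Mrps6 and Mrps10 rose by 2.14 and 1.89.

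Translation factors, tRNA synthetases and amino acid transporters rose in different proportions. Of 34 initiation factors 22 rose and 1 fell. Eif4a1, the helicase of the cap-binding complex, went from 23.9 and 24 RPKM to 106 and 98.6, Eif2b3, a subunit of the exchange factor for eIF2, from 2.83 and 3.13 to 16.7 and 14.0, and Eif2s1, the alpha subunit of eIF2, from 28.1 and 30.7 to 113 and 106. The exception was Eif3f, at 882 and 858 RPKM in naive cells and 444 and 479 at 10 h. Of 20 cytosolic aminoacyl-tRNA synthetases 16 rose and 0 fell, with a median of 1.5 and the largest changes for Cars (2.46), Iars (2.12) and Aars (2.07). These enzymes charge tRNAs with their amino acids. Among 13 amino acid transporters 6 rose and 1 fell. Slc7a5, the light chain of the large neutral amino acid carrier, stood at 13.4 and 13.5 RPKM in naive cells and at 109 and 115 at 10 h, a log2 fold change of 3.06 with an SE of 0.17 (glmTreat adjusted p = 4.8e-08). Its heavy chain Slc3a2 went from 48.8 and 46.5 to 87.7 and 89.5. Slc1a4, a carrier of alanine, serine and cysteine, was close to absent in naive cells at 0.188 and 0.247 RPKM and had 8.79 and 10.0 at 10 h, and Slc43a2 fell by 1.66 on the log2 scale.

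Polyamines, small cations needed for growth, are made by a short pathway of which 3 of 6 tested genes rose and 0 fell. Srm, spermidine synthase (Entrez 20810, chromosome 4 from 148591513 to 148594619), had 33.7 and 35.9 RPKM in naive cells and 334 and 300 at 10 h. This is a log2 fold change of 3.19 with an SE of 0.14 (glmTreat adjusted p = 4.2e-09), or 9.11-fold. Odc1, the rate-limiting ornithine decarboxylase, went from 43.8 and 35.9 to 180 and 200, and Amd1, which makes the aminopropyl donor, from 6.37 and 6.29 to 23.7 and 19.5. Srm was already at 262 and 306 RPKM by 3 h and averaged 364 at 33 h, a plateau that contrasts with the course of Myc in the plot of levels by stage.

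**Figure D3:**
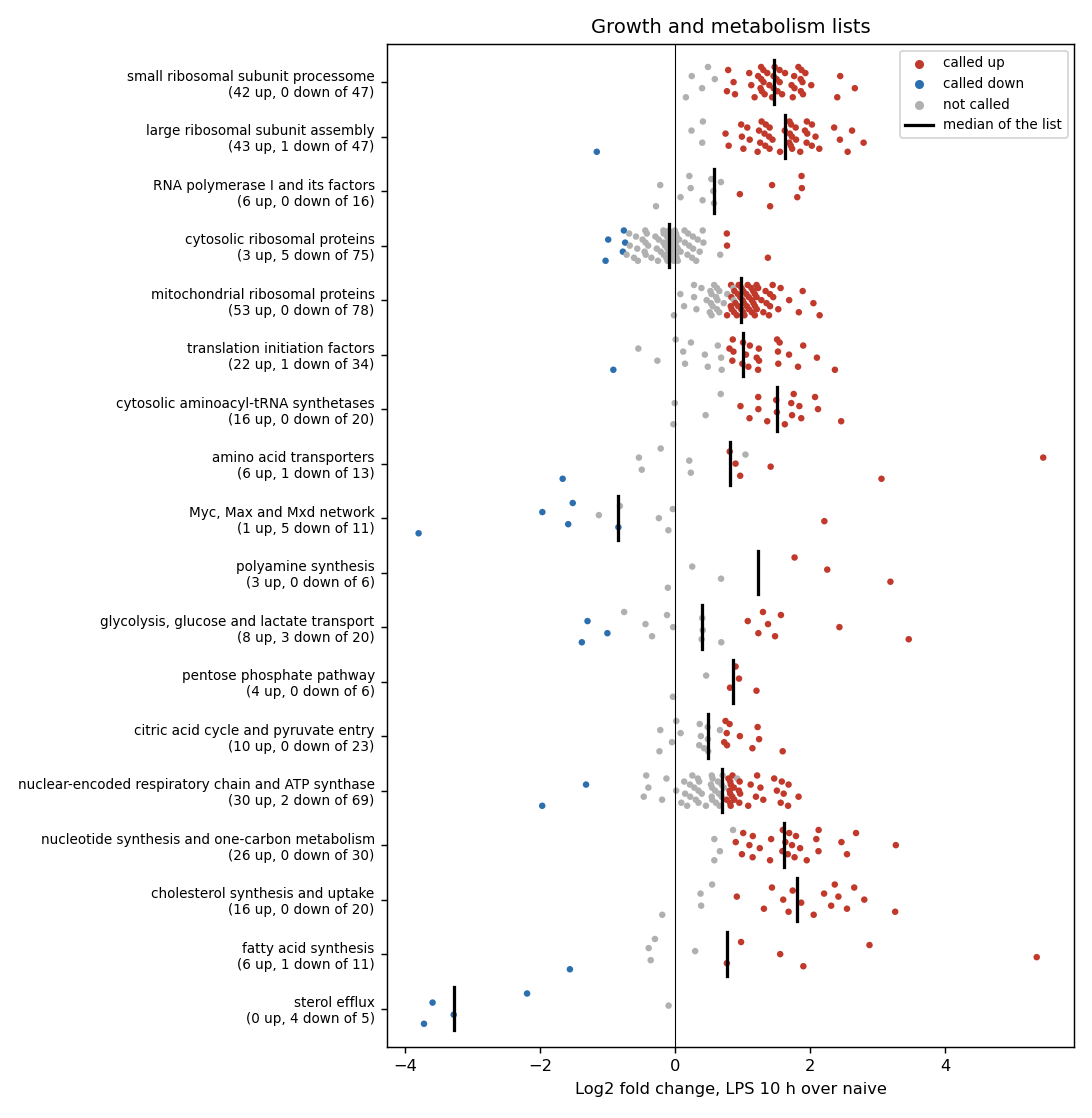
Log2 fold change from naive cells to 10 h of every tested member of the growth and metabolism lists (red: called higher, blue: called lower, grey: not called), with the median of each list as a black bar. The medians of the ribosome assembly, tRNA synthetase, nucleotide and cholesterol lists sit to the right of 0. The lowest members of the large subunit (-1.16), tRNA synthetase (-0.025) and cholesterol (-0.19) lists lie left of 0. Cytosolic ribosomal proteins lie around 0 (median -0.091), and sterol efflux genes to the left (median -3.28).

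Because E-boxes are the sites that Myc and Max are known to bind, the promoters of growth genes were searched for CACGTG, which reads the same on both strands. In RefSeq promoters of build GRCm38.p6, 289 of 360 growth list genes and 169 of 197 metabolism list genes had an entry. The 250 bases before the start held CACGTG in 43 of 334 growth promoters (12.9%) and 28 of 208 metabolism promoters (13.5%), against 1978 of 32851 promoters of all genes (6.02%). Of 12750 tested genes 9919 had an entry, and 1034 of their 12567 promoters held it (8.23%). Single lists ranged widely. Initiation factors had 26.5%, the small subunit processome 15.8%, RNA polymerase I 8.70% and large subunit assembly 6.67%. The pentose phosphate pathway had the hexamer in 0 of 8 promoters. Lists that did not rise held it too. The Myc network, with 1 rise and 5 falls, had it in 3 of 13 promoters (23.1%). Sterol efflux, with 4 falls, had it in 1 of 5, and cytosolic ribosomal proteins had 10.3%. All these shares count list members whether they rose or not, and a link between the hexamer and a rise was not tested. A match is a description of the letters and shows no binding. The following 5 promoters of genes that rose are shown because they hold the hexamer, 3 of them more than once. They are those of Slc16a1 (chr3:104638414-104638663), Nop2 (chr6:125131633-125131882), Eif4e (chr3:138527018-138527267), Rrn3 (chr16:13780449-13780698) and Ldha (chr7:46845554-46845803), all on the plus strand. They were chosen after their values were seen. Each is written 5′ to 3′ up to the base before the start, with CACGTG in capitals.
Slc16a1: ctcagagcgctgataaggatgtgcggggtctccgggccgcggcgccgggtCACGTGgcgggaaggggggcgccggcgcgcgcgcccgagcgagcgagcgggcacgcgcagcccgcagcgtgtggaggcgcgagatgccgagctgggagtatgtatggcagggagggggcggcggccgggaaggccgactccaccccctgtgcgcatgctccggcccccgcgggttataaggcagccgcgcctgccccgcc
Nop2: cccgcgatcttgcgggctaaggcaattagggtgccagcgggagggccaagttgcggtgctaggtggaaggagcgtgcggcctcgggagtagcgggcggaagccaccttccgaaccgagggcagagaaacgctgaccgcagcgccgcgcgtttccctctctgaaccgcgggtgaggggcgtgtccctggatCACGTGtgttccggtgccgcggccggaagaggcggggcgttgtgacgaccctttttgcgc
Eif4e: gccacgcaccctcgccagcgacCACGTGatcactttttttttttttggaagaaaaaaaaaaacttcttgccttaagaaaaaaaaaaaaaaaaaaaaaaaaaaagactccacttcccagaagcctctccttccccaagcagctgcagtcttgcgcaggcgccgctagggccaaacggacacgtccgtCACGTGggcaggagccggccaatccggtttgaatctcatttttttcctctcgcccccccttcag
Rrn3: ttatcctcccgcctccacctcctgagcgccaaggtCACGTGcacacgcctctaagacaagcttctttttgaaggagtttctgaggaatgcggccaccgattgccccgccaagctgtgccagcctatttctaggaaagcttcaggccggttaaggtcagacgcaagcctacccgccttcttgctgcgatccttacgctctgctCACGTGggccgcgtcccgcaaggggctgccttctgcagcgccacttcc
Ldha: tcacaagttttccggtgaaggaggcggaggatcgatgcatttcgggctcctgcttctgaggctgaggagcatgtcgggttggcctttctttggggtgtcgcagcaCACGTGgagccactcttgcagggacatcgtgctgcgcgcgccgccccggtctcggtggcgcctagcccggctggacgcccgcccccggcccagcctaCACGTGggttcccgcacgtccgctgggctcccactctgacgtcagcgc
In Nop2, a methyltransferase of 28S rRNA that went from 30.0 and 26.6 RPKM to 122 and 117, the hexamer begins 60 bases before the start. In Slc16a1, a carrier of lactate that went from 3.49 and 3.15 to 18.9 and 17.0, it begins 200 bases before the start. Eif4e, the cap-binding protein, holds it 228 and 64 bases before a start of the gene, and rose by 1.52 on the log2 scale. In Rrn3 the distances are 215 and 48 bases, and in Ldha 145 and 48 bases.

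Nucleotide synthesis and the one-carbon pathway that feeds it rose with few exceptions. Of 30 tested genes 26 rose and 0 fell, with a median log2 fold change of 1.61, or 3.06-fold. Mthfd2, the mitochondrial enzyme that oxidises methylene-tetrahydrofolate, went from 8.73 and 8.71 RPKM to 79.7 and 88.4, a log2 fold change of 3.27 with an SE of 0.24 (glmTreat adjusted p = 1.2e-06). Shmt2, which takes a carbon from serine in the same compartment, went from 44.8 and 47.6 to 293 and 299, and its cytosolic counterpart Shmt1 from 6.67 and 6.97 to 43.0 and 36.4. Within each gene the 2 replicates of a stage lay close to each other. Cad, the enzyme of the first steps of pyrimidine synthesis, went from 26.1 and 29.4 to 126 and 116 RPKM, and the purine genes Atic and Ppat rose by 1.67 and 1.69 on the log2 scale. Shmt2 and Cad reached this level mainly after 3 h, with changes from 3 h to 10 h of 1.63 and 1.91, whereas most of the rise of Mthfd2 (2.63) was present at 3 h.

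The glycolytic list was mixed. Of 20 tested genes 8 rose (40%) and 3 fell (15%), against 19.5% and 19.9% of all tested genes, and the median was 0.41. Hk2, the inducible hexokinase, went from 1.37 and 1.17 RPKM to 13.8 and 14.2, a log2 fold change of 3.46 with an SE of 0.15 (glmTreat adjusted p = 4.3e-09), while Hk1 fell, from 32.2 and 36.7 to 17.7 and 16.7. Thus the lower of these isoenzymes gained and the higher lost, and at 10 h they lay at similar levels per length. Pgam1 (1.57), Aldoa (1.48), Tpi1 (1.38), Pkm (1.30), Ldha (1.23) and Gapdh (1.08) rose. The glucose transporters did not: Slc2a1 stood at 21.0 and 20.9 RPKM in naive cells and 16.3 and 16.8 at 10 h, a log2 fold change of -0.34 with an SE of 0.15 (glmTreat adjusted p = 1), and Slc2a3 fell from 16 and 16.1 to 6.73 and 6.34. In the pentose phosphate pathway, which makes ribose and NADPH, 4 of 6 genes rose, led by Tkt, from 159 and 167 to 379 and 374 RPKM. Under DESeq2's Wald test 1 of the 6 did.

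Nuclear genes of mitochondrial respiration rose more often than all tested genes (19.5%). Among 69 genes of the respiratory chain and ATP synthase 30 rose (43.5%) and 2 fell, with a median of 0.69. Of 23 genes of the citric acid cycle 10 rose (43.5%) and 0 fell, with a median of 0.49. Ndufa12, a subunit of complex I, went from 14.5 and 15.6 RPKM to 47.7 and 48.6, and Atp5g1, of the ATP synthase ring, from 10.6 and 11 to 38.1 and 30.8. Suclg2, a succinate-CoA ligase subunit, went from 7.62 and 8.08 to 24.5 and 22.8. Cox7a2l, a factor of supercomplex assembly, and Uqcrh, of complex III, went against the list, at 320 and 303 against 76.1 and 83.4 RPKM and at 363 and 361 against 158 and 132. Many members were close to the 1.5-fold limit, so the counts depended on the test. The F-test with no fold limit called 55 rises in the respiratory list and 18 in the citric acid cycle, against 35.0% of all tested genes. Without naive replicate 1 or LPS 10 h replicate 1 the citric acid cycle had 5 rises, and under DESeq2's Wald test it had 3 and the respiratory list 16.

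Most genes of sterol synthesis rose and most of a sterol efflux list fell. Of 20 genes of cholesterol synthesis and uptake 16 rose and 0 fell (median 1.8). Of the 5 genes of the efflux list (Abca1, Abcg1, Nr1h2, Nr1h3 and Mylip) 4 fell and 0 rose (median -3.28). Idi1, the isopentenyl isomerase, went from 4.11 and 4.65 RPKM to 40.2 and 43.4, Fdps from 6.71 and 5.49 to 42.0 and 43.5, and Sqle, which commits the pathway to sterols, from 8.45 and 11.1 to 57.0 and 65.8. On the other side, Abca1, which loads cholesterol onto lipoproteins, went from 29.8 and 21.7 to 2.72 and 2.59 RPKM, a log2 fold change of -3.28 with an SE of 0.23 (glmTreat adjusted p = 4.5e-07). Abcg1 (-3.59), a second exporter, and Mylip (-3.72), the ligase that degrades the LDL receptor, fell alike. Abca1 went on falling, to a mean of 0.209 RPKM at 33 h. In fatty acid synthesis 6 of 11 genes rose and 1 fell. Fasn, the synthase, went from 25.7 and 26.8 to 97.4 and 98.3, and the desaturases parted, with Fads1 from 0.666 and 0.639 to 4.55 and 5.08 and Scd1 from 427 and 443 to 147 and 148. Fads2 was at the floor of at most 3 counts in both naive libraries and had 137 and 111 counts at 10 h.

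**Figure D4:**
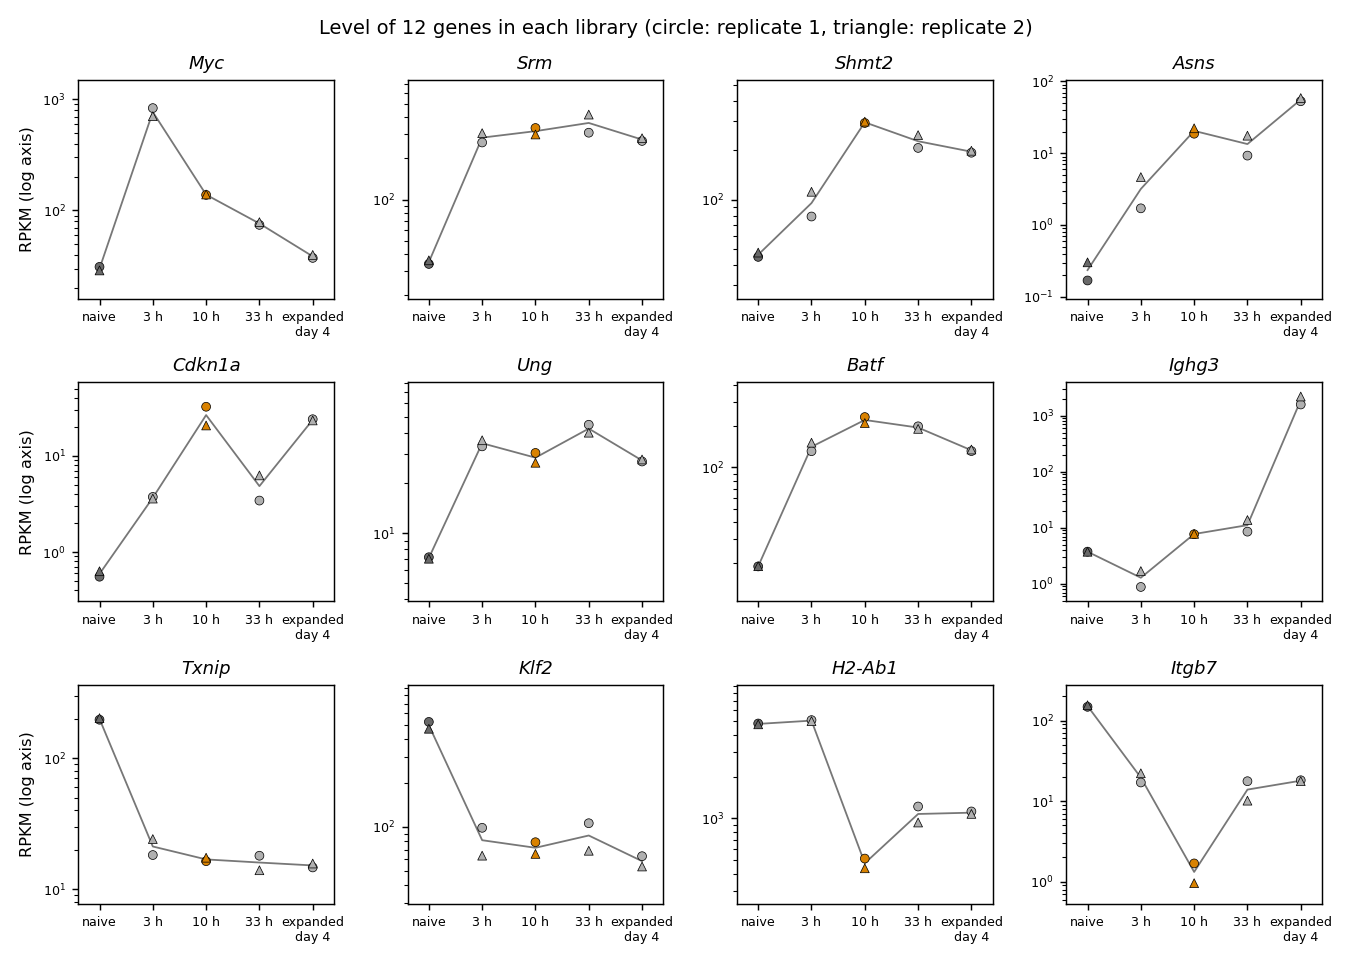
RPKM (log axis) of 12 genes in each library of 5 stages, with naive cells in dark grey and 10 h in orange, and a line through the means. Myc peaks at 3 h and is at 138 and 139 RPKM at 10 h, Srm and Shmt2 hold their rise, Ighg3 climbs after 10 h, and H2-Ab1 drops between 3 h and 10 h.

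Of 14 genes of G1 progression 7 rose (50%) and 3 fell (21.4%), against 19.5% and 19.9% of all tested genes. Of 20 genes of mitosis 2 rose and 2 fell (10% each), which is below those shares. Ccnd2, the D-type cyclin of activated B cells, went from 24.8 and 24.6 RPKM to 140 and 115, and Cdk6 and Cdk4, its kinases, from 2.92 and 2.21 to 13.3 and 15.1 and from 84.4 and 83.9 to 233 and 225. Of the kinase inhibitors, Cdkn2d (p19) went from 32.8 and 36.2 to 3.55 and 2.87 RPKM and Cdkn1b (p27) from 26.3 and 26.9 to 11 and 11. Cdkn1a (p21) did the reverse, at 0.554 and 0.632 RPKM in naive cells against 32.4 and 20.7 at 10 h, a log2 fold change of 5.49 with an SE of 0.34 (glmTreat adjusted p = 1.3e-07). It was lower again at 33 h, at a mean of 4.85. Ccnd3 was not called, with 42.5 and 44.0 RPKM in naive cells and 45.8 and 35.7 at 10 h, and it rose from 10 h to 33 h, by 2.12 on the log2 scale.

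In the E2F and retinoblastoma family 5 of 13 genes rose (38.5%) and 2 fell (15.4%), against 19.5% and 19.9% of all tested genes. Tfdp1, the DNA-binding partner of the E2F proteins, went from 9.31 and 7.75 to 50.6 and 42.8 RPKM, and E2f2 from 27.8 and 26.3 to 8.69 and 6.73.

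In DNA replication 21 of 40 genes rose (52.5%, against 19.5% of all tested genes) and 1 fell (median 0.81). Orc1, of the origin recognition complex, went from 0.461 and 0.424 RPKM to 4.51 and 3.28, Mcm10 from 1.02 and 0.888 to 6.08 and 4.77, and Cdc6, the licensing factor, from 0.446 and 0.643 to 2.98 and 1.96. These were low levels compared with those at 33 h, where Orc1, Mcm10 and Cdc6 averaged 17.3, 43.6 and 23.6 RPKM. The single fall, that of Rpa1 (-0.74), was lost without naive replicate 1 or LPS 10 h replicate 2. It was also lost under library size alone (glmTreat adjusted p = 0.26) and with no filter on low counts (glmTreat adjusted p = 0.058). The mitosis and spindle list had a median of 0.16 at 10 h. From 10 h to 33 h 20 of its 20 genes rose, a step in which 10.1% of all tested genes did. Bub1b, a spindle checkpoint kinase, stood at 3.98 and 3.67 RPKM in naive cells, 7.83 and 7.18 at 10 h and a mean of 51.6 at 33 h. The calls of Bub1b, Nusap1 and Kif23 were lost under several alternatives.

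Class switching, the exchange of the IgM constant region for another by recombination, uses enzymes of DNA repair. Of 33 tested genes of the switching machinery 10 rose (30.3%, against 19.5% of all tested genes) and 2 fell (median 0.36). Ung, the glycosylase that removes uracil from DNA, went from 7.17 and 7.03 to 30.3 and 26.4 RPKM, and Apex1, the endonuclease that cuts at the abasic site, from 23.8 and 25.1 to 88.5 and 92.9. Exo1 (1.61), Mad2l2 (1.55), Fam72a (1.51), Xrcc5 (1.07), Msh6 (1.02) and Xrcc6 (0.98) also rose. Trp53bp1, Atm and Rif1, with changes of 0.36, 0.61 and 0.69, did not pass the test. Hmces, which shields abasic sites, was lower, at 22.3 and 21.2 RPKM against 9.42 and 7.44.

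Transcripts of the switched constant regions were few. Ighg2b went from 4.47 and 3.43 RPKM to 8.88 and 8.37, a log2 fold change of 1.11 with an SE of 0.19 (glmTreat adjusted p = 0.0059), a call that was lost without naive replicate 2 (adjusted p = 0.051) and under DESeq2's Wald test (adjusted p = 0.067). Ighg3 stood at 3.76 and 3.75 RPKM against 7.70 and 7.82 and was not called (adjusted p = 0.059), although it was under 7 of the 15 alternatives. In expanded cells these genes averaged 519 and 1896 RPKM. Ighg1 (0.200 and 0.446 against 0.605 and 0.411 RPKM) and Ighg2c (0.557 and 3.12 against 3.36 and 2.49) overlapped between the groups. The gamma genes resemble each other, so that reads could be split between them, and counts on constant exons do not separate germline from switched transcripts. Igha was lower at 10 h, at 12.1 and 9.69 RPKM against 1.36 and 1.51. Ighm and Ighd are genes of the naive gate and were at 5407 and 5506 against 4005 and 4234 RPKM and at 2879 and 2893 against 1185 and 1416. None of the 5 light chain constant and Jchain genes was DE, and the replicates of Jchain were far apart, at 32.8 and 17.7 RPKM at 10 h.

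Of 32 tested transcription factors of B cell fate 12 fell (37.5%, against 19.9% of all tested genes). Rises, with 6 of the 32 (18.8%), were no more frequent than among all tested genes (19.5%). Batf, an AP-1 factor needed for switching, went from 18.9 and 18.9 RPKM to 234 and 212, a log2 fold change of 3.56 with an SE of 0.10 (glmTreat adjusted p = 2.2e-10). Prdm1, which encodes Blimp-1, the plasma cell factor, went from 0.603 and 0.475 to 4.32 and 5.40, Id2 from 3.06 and 2.83 to 12.7 and 12.1, and Irf4 from 54.1 and 52.2 to 128 and 136. Irf4 (709 and 519 RPKM) and Id2 (29.3 and 35.6) had been higher at 3 h, and Batf (132 and 152) and Prdm1 (1.4 and 1.66) lower. Among the 12 that fell, Bach2 went from 37.9 and 36.8 to 14.2 and 16.1 RPKM, Ebf1 from 83.2 and 84.0 to 40.5 and 43.0, and Hhex from 106 and 115 to 10.7 and 11.7. The falls of Pax5 (-0.99) and Bcl6 (-0.93) were close to the limit. Both calls were lost without LPS 10 h replicate 1, at log2 fold changes of -0.873 and -0.815. The call of Bcl6 was also lost without naive replicate 2 (-0.800) and under library size alone (glmTreat adjusted p = 0.054).

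**Figure D5:**
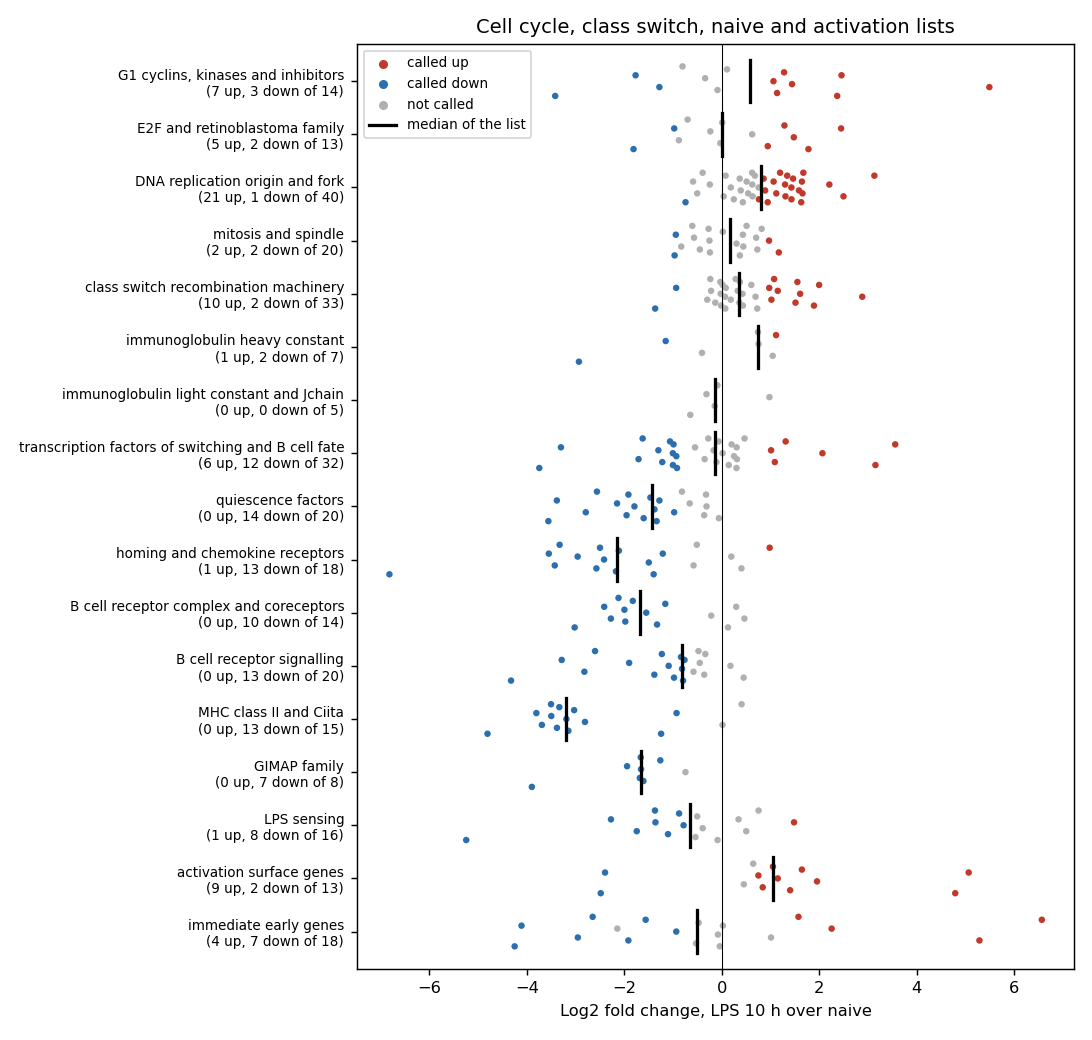
Log2 fold change from naive cells to 10 h of every tested member of the cell cycle, class switch, naive and activation lists (red: called higher, blue: called lower, grey: not called; black bar: median). MHC class II genes have a median of -3.19 and homing genes of -2.14, and no member of the quiescence, B cell receptor, MHC class II or GIMAP lists was called higher.

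Of 20 tested genes that hold lymphocytes in quiescence 14 were lower and 0 higher (median -1.42, with 19.9% of all tested genes lower). Klf2, the Krüppel-like factor of resting lymphocytes, went from 525 and 471 RPKM to 78.6 and 65.3, a log2 fold change of -2.79 with an SE of 0.23 (glmTreat adjusted p = 3.6e-06). Txnip, which restrains glucose uptake, went from 196 and 202 to 16.4 and 17.4, and Foxo1 from 111 and 111 to 41.8 and 49.8. These falls lasted, with means at 33 h of 87.3, 16 and 34.3 RPKM for Klf2, Txnip and Foxo1. Btg1, an antiproliferative factor, took another course, at 182 and 176 RPKM in naive cells, 261 and 227 at 3 h and 45.1 and 49.7 at 10 h.

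Of 18 genes for receptors that guide B cells through blood and lymph 13 fell and 1 rose, with a median of -2.14. S1pr1, the receptor for egress, went from 158 and 161 RPKM to 14.5 and 17.4. Itgb7, the beta chain of the gut-homing integrin (Entrez 16421, chromosome 15 from 102215994 to 102233405), had the largest fall among genes with an average of at least 5 log2 CPM, from 148 and 155 RPKM to 1.69 and 0.959, a log2 fold change of -6.82 with an SE of 0.32 (glmTreat adjusted p = 2.7e-08). Some of it had returned by 33 h, where the mean was 13.9. Ccr7, which draws activated B cells to the T cell zone, rose from 182 and 159 to 310 and 366 RPKM, down from 1056 and 1067 at 3 h. Its call was lost without naive replicate 2 or LPS 10 h replicate 2, and under DESeq2's Wald test (adjusted p = 0.15). Cxcr5 (458 and 438 against 292 and 309 RPKM) was not called.

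Of 14 genes of the B cell receptor complex and its coreceptors 10 fell and 0 rose (median -1.69), and of 20 signalling genes 13 fell and 0 rose (median -0.83). Cd79a, a signalling chain of the receptor, went from 2533 and 2351 RPKM to 463 and 454, Cr2, the complement receptor, from 122 and 129 to 15.1 and 15.8, and Cd22, an inhibitory coreceptor, from 413 and 414 to 89.5 and 81.4. Cd81, Cd72 and Fcgr2b were not called. Among the signalling genes the largest falls were those of Rasa3, a Ras and Rap1 GTPase activator (145 and 136 against 7.27 and 6.80 RPKM), the adaptor Dok3 (166 and 160 against 18.3 and 15.2) and Rasgrp2 (80.1 and 86.7 against 12.6 and 11). Rasa3 and Rasgrp2 were still at 149 and 148 and at 54.6 and 70 RPKM at 3 h, and Dok3 had by then fallen to 25.5 and 26.7. From 10 h to 33 h 3 of the 14 receptor genes and 3 of the 20 signalling genes rose and 0 fell. In that step 10.1% of all tested genes rose.

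Of 15 tested genes of presentation on MHC class II 13 fell and 0 rose, with a median log2 fold change of -3.19, and the summed level of the list went from 42500 and 41190 RPKM to 5281 and 4840. H2-Ab1 (Entrez 14961, chromosome 17 from 34263227 to 34269418), a beta chain, went from 4817 and 4752 to 513 and 436 RPKM, a log2 fold change of -3.33 with an SE of 0.12 (glmTreat adjusted p = 1.2e-09). H2-Aa, its alpha chain, went from 7786 and 7794 to 619 and 496, and H2-Oa, which restrains peptide loading, from 452 and 450 to 17.3 and 14.8. The timing differed within the list. Ciita, the master activator of these genes, had fallen from 138 and 133 RPKM to 17.5 and 28.5 by 3 h, when H2-Ab1 still had 5096 and 5011 and H2-Aa 6308 and 6791 RPKM. From 10 h to 33 h 9 of the 15 rose again, among them H2-Ab1 by 1.18. Rfxank and Rfxap, of the constitutive factor at these promoters, were not called. The GIMAP family of small GTPases of resting lymphocytes followed with 7 of 8 genes lower (median -1.66), led by Gimap7, from 79.8 and 73.8 to 5.75 and 4.52 RPKM, and its members resemble each other enough that reads could be shared. The summed level of the family was 1516 and 1479 RPKM in naive cells, 464 and 429 at 10 h and 999 and 837 at 33 h. Its loss was thus partly reversed, and 3 of the 8 genes were called higher from 10 h to 33 h.

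Naive replicate 1 held more myeloid transcripts than naive replicate 2. Both naive libraries held them, so leaving out 1 library cannot separate their part in these falls. MHC class II and Itgb7 are also expressed by other spleen cells, whose markers were higher in both naive libraries (426 and 178 RPKM summed for the myeloid list), and their part in the losses was not tested.

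Of 13 surface genes of activation 9 rose and 2 fell, with 6 rises without naive replicate 1 or LPS 10 h replicate 1 and 5 under DESeq2's Wald test. Il2ra, the alpha chain of the interleukin-2 receptor, stood at 0.894 and 0.832 RPKM in naive cells and 22.5 and 25.5 at 10 h, a log2 fold change of 4.79 with an SE of 0.12 (glmTreat adjusted p = 1.4e-10), after 159 and 141 at 3 h. The costimulatory ligand Cd86 went from 13.4 and 13.7 to 38.6 and 33.1, after a mean of 117 at 3 h, and Cd80 from 0.208 and 0.114 to 6.80 and 4.49, here with the 3 h libraries in between. Icosl and Slamf1 fell, to 14.0 and 12.9 and to 3.86 and 3.69 RPKM from 74.3 and 76.3 and from 19.9 and 19.9. Cd69, a gene of the 10 h gate, had 35.2 and 32.5 RPKM in naive cells and 30.4 and 33.2 at 10 h, against a mean of 266 at 3 h.

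Of 18 immediate early genes 4 rose (22.2%) and 7 fell (38.9%) against naive cells. Among all tested genes the shares were 19.5% and 19.9%, so that rises were close to the share of all genes. Jun (10.1 and 10.2 against 30.1 and 30.2 RPKM) and Atf3 (0.194 and 0.216 against 9.41 and 6.63) rose, while Egr3, Fos and Fosb fell, Egr3 from 71.4 and 79.2 to 10.9 and 8.53. Nr4a1, an early target of antigen receptor signals, was at 11.5 and 10.8 against 10.6 and 12.1 RPKM and was not called. Nr4a2 had 0 counts in both naive libraries, which allows up to 3 each, and 11 and 18 at 10 h. In LPS sensing 8 of 16 genes fell and 1, the adaptor Ticam2, rose. Tlr4, the LPS receptor itself, went from 6.96 and 6.74 RPKM to 1.69 and 1.13, having been at 0.0290 and 0.205 at 3 h. Cd14, the coreceptor on myeloid cells, was at 0.335 and 0.440 RPKM in naive cells with at most 1 count at 10 h.

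The 10 largest rises among genes with an average of at least 5 log2 CPM were led by Asns, asparagine synthetase, from 0.169 and 0.302 RPKM to 18.7 and 22.3, a log2 fold change of 6.48 with an SE of 0.56 (glmTreat adjusted p = 5.5e-06). Nfkbiz, an atypical inhibitor of NF-κB, went from 1.20 and 1.01 to 88.5 and 90.8 at 10 h, a log2 fold change of 6.33, and had averaged 506 at 3 h. Zbtb32, a repressor of activated lymphocytes, went from 0.965 and 1.31 to 50.8 and 34.4, and Bcat1, which transaminates branched-chain amino acids, from 0.146 and 0.201 to 4.68 and 4.99. Both kept climbing, to means of 147 and 9.59 RPKM at 33 h. A pair of genes of cell survival with opposite roles were both on the list. Bbc3, which encodes the death factor Puma, went from 2.33 and 1.53 to 51.9 and 47.4 RPKM, and Bcl2l1, which encodes the survival factor Bcl-xL, from 3.21 and 3.37 to 43.5 and 50.6, down from a mean of 396 at 3 h. Il2ra, Niban1 (4.27), Plxnd1 (4.03) and Ankrd33b (3.95) complete the 10.

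Of the 10 largest falls, Itgb7, H2-Oa and Rasa3 are given above. Serpinb1a, an inhibitor of neutrophil proteases, went from 160 and 173 RPKM to 2.15 and 1.93, Gsn, the actin-severing gelsolin, from 71.5 and 67.4 to 1.23 and 1.03, and Cd2, an adhesion receptor, from 229 and 248 to 7.87 and 7.86. Serpinb1a and Gsn are also known from myeloid cells, whose markers were higher in naive cells, and the part of these cells was not tested. Cpt1a, which carries fatty acids into mitochondria for oxidation, went from 62.8 and 55.5 to 2.63 and 2.46. Myadm (-4.72), Acp5 (-4.51) and Serpina3g (-4.22) followed. Serpinb1a, Gsn, Cd2, Cpt1a, Myadm and Acp5 were higher again at 33 h than at 10 h, at means of 17.5, 9.32, 33.9, 5.77, 4.10 and 26.6 RPKM, and each of these 33 h means was below the naive level.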

How the data were processed

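RNA-Seq libraries were made with a TruSeq kit from polyadenylated RNA. The deposited values are raw counts per gene, for which the authors used featureCounts with an Entrez annotation after Rsubread alignment of paired-end reads to mm10, with exon lengths given, with no normalization. The kit does not mark strand, so overlapping and antisense genes share reads. After the study's methods, mitochondrial, ribosomal RNA, X and Y chromosome and variable immunoglobulin genes and IDs without an annotation entry were removed, which left 23700 of 27179, and filterByExpr kept 12750. R 4.3.3 with edgeR 4.0.16 was used for glmTreat at 1.5-fold in a one-way layout of all 12 libraries (robust quasi-likelihood dispersions), with RPKM from TMM-scaled library sizes. Adjusted p-values are Benjamini-Hochberg over all tested genes, and at most 3 counts in both libraries of a group was taken as the floor. The fits were tested on simulated data with 200 of 12296 genes changed, far fewer than the DE genes here. There glmTreat called 40.0% of 2-fold, 90.2% of 3-fold, 79.6% of 4-fold and 92% of 8-fold changes with the right sign. It called 0 unchanged genes. A gene that was not called is therefore not shown to be unchanged. DESeq2 1.42.0 was an alternative.

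The lists and members were chosen with earlier results of these data known. Genes named are Myc, genes chosen by role, up to 3 rises and 3 falls of each list, and the 10 largest rises and falls at an average log2 CPM of at least 5. Others were named after their values were seen. List counts are descriptions without a set test. Replicates of every stage differed by more than sampling noise (chi-square test of counts). The SD across genes of the log2 ratio of replicates was 0.385 in naive cells and 0.346 at 10 h. Some genes are not reported here.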

Additional observations from a re-analysis of the deposited data

Results flagged for a closer look

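Genes outside the main test also changed when all genes were kept. Of 445 genes of the X and Y chromosomes 63 were called higher at 10 h (14.2%) and 73 lower, and of 410 genes without an annotation entry 49 were higher (12.0%) and 61 lower (glmTreat, adjusted over all genes kept). Both are listed because these genes lie outside the comparisons of the report and some were above their naive level. Both shares of genes called higher were below the 19.5% of the main test, so the counts show no excess.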

How the results depend on the processing

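The 2480 rises and 2540 falls stayed within 1.5 times of these numbers under 14 of the 15 alternatives. The exception was the F-test with no fold limit, at 4461 rises and 4166 falls. Leaving out 1 library at a time gave 2193 to 2350 rises and 2189 to 2348 falls. DESeq2's Wald test gave 1703 and 2085. Library size alone in place of TMM moved the median of all genes by 0.12 and the split to 2909 up and 2222 down, and DESeq2's size factors gave 2212 and 2787. Of 167 named genes called, 20 lost the call under 1 or more alternatives and 0 reversed. The same replicate number was not shown to pair libraries (correlation of the naive and 10 h differences -0.017), and with a term for the replicate block 2466 rose and 2528 fell. With 2 libraries a group, changes near 1.5-fold and genes of a few counts are the least certain.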

Other observations

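Mitochondrially encoded transcripts went the other way from the nuclear genes of respiration. With all genes kept, 10 of 15 mitochondrial genes were called lower at 10 h and 0 higher, with a median log2 fold change of -1.03. COX1, a catalytic subunit of cytochrome oxidase, had 29160 and 32870 RPKM in naive cells against 13760 and 16250 at 10 h, and ND5, a core subunit of complex I, 6268 and 7324 against 2208 and 2710. The mitochondrial rRNA mt-Rnr2, at 731 and 889 against 881 and 877 RPKM, was not called. These transcripts make up 10.3% and 11.5% of the naive counts, and a share of the library is all that is measured.

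The following X-linked genes are on none of the lists and were chosen after their values were seen. Slc7a3, a carrier of cationic amino acids, had 0.0374 and 0.0163 RPKM in naive cells and 14.7 and 14.7 at 10 h, and 0.141 and 0.457 at 3 h. Pim2, a kinase that promotes growth and survival, went from 22.2 and 20.2 to 114 and 143, and Dkc1, the pseudouridine synthase of box H/ACA snoRNPs, from 29.9 and 32.1 to 125 and 132. Of the X-linked members of the growth and metabolism lists 22 were tested with all genes kept, of which 8 were called higher, 1 lower and 13 not. The ribosome assembly genes Las1l (0.99), Gnl3l (0.89) and Utp14a (0.78), the glycolytic Pgk1 (1.32) and the nucleotide gene Prps1 (1.45) were among the higher ones, Ctps2 (-0.86), a CTP synthase of the nucleotide list, was the lower one, and Prps2, G6pdx, Sms, Pdha1, Idh3g and Ndufb11 were among those not called. Among other lists, Btk, the kinase downstream of the B cell receptor, went from 108 and 106 RPKM to 50.8 and 52.1, and Tsc22d3, a glucocorticoid-induced factor, from 44.5 and 24.4 to 5.74 and 7.25.

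Of 232 variable immunoglobulin segments tested when kept, 81 were lower at 10 h (34.9%) and 0 higher, with a median of -0.80. In the main test 19.9% of genes were lower, and Ighm was not called there, at -0.41.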
